A study of Homo sapiens with 6 samples.

Results

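The collagen genes are the 38 protein-coding genes of the deposited table, out of 26748 genes in all, whose symbol reads COL, a number, A and a number. They were grouped by the structure of the encoded chain into 9 fibrillar, 6 basement membrane, 9 FACIT (fibril-associated collagens with interrupted triple helices) and 14 other collagens. Another 6 collagen genes of these classes (COL1A2, COL11A2, COL21A1, COL6A3, COL23A1 and COL28A1) had no row and were not analysed here. All RNA came from M14, an established human melanoma line. Its cells grew adherent in conventional culture (2D, libraries 2D-1, 2D-2 and 2D-3) or non-adherent as melanospheres (3D, libraries 3D-1, 3D-2 and 3D-3), with no other treatment named for either. Both cultures are the same single line, so the values describe M14 and not melanoma in general. The series asked how the cell populations of adherent and non-adherent cultures differ.

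Collagens are secreted or membrane proteins in which chains with glycine in a regular repeat wind into a triple helix. Fibrillar collagens assemble into the fibrils of connective tissue, type IV collagens into the sheet of basement membranes, and FACITs sit on the surface of fibrils. In skin, the basement membrane carries the melanocytes and is held to the dermis by anchoring fibrils of type VII collagen, and melanoma cells cross it when they invade.

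Values are normalised counts, the reads of a gene divided by 1 size factor per library, and are given as mean ± SD over 3 libraries where not listed singly. The libraries held 16567763 to 19954987 reads. Whether replicates came from separate cultures is not in the labels. The p-values therefore measure how much these libraries vary, and part of that may be technical. Across genes, 2D-1 and 2D-2 correlated at r = 0.982, and each with 2D-3 at 0.969 and 0.966, so 2D-3 stood apart from its group. It correlated with the 3D libraries at 0.958, 0.962 and 0.959, where 2D-1 and 2D-2 had 0.941 to 0.947. A mean chi-square per gene was also taken between the reads of each library pair. For 2D-3 it was 145 with 2D-1 and 126 with 2D-2, against 118, 113 and 121 with 3D-1, 3D-2 and 3D-3. By this measure 2D-3 was nearer to the 3D libraries than to its own group. Libraries 3D-1 and 3D-3 correlated at 0.979 and each with 3D-2 at 0.971 and 0.972. Of the melanocyte markers, MITF was present in every library (271 to 1295) and so was PMEL (227 to 1377). SOX10, MLANA, TYR, TYRP1 and S100B did not exceed 37.0 in any library and had their highest values in 2D-3, and DCT had 53.4, 38.4 and 118 in 2D-1, 2D-2 and 2D-3 and at most 1.86 in 3D.

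Collagen transcripts made up more of the RNA in the spheres. Their share of all reads was 0.135%, 0.181% and 0.250% in 2D (2D-1, 2D-2 and 2D-3 in this order), and 0.449%, 0.396% and 0.448% in 3D. Every 3D library was above every 2D library, and 2D-3 was the highest of its group. No test was made on this share. In bulk RNA, more cells with a transcript and more of it per cell cannot be told apart. Of the 38 genes, 29 had a mean of at least 10 over the 6 libraries and were tested. Of these, 16 rose and 5 fell in the spheres by limma, or 72.4%, at an adjusted p under 0.05 (Benjamini-Hochberg over 15598 genes), where 24.1% of all tested genes passed, 12.5% higher and 11.6% lower. COL8A1 and COL17A1 had a mean under 10 in 2D and entered the test through their 3D values. Among the other 27, 14 rose and 5 fell, with a median log2 change of 1.09. The median over the 29 was 1.20, against -0.02 for all genes tested.

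Of the 29 tested, 18 had every 3D library above every 2D library and 5 had every 3D library below, where 20.5% and 22.6% of all tested genes did, 43.1% together. In 23 of the 29, 2D-3 was the highest of the 2D libraries, a place it took in 42.6% of all tested genes. Without 2D-3 the counts were 19 higher and 5 lower (22.6% and 23% of all genes, 45.6% together). Leaving out 2D-1 gave 9 higher and 3 lower (5.32% and 4.61% of all genes, 9.93% together), and leaving out 2D-2 gave the same counts (6.57% and 4.92%, 11.5% together). Dropping 3D-1 left 8 higher and 4 lower (3.9% and 4.47%, 8.38% together). Dropping 3D-2 left 13 higher and 4 lower (10.1% and 9.03%, 19.1% together). Dropping 3D-3 left 7 higher and 3 lower (3.42% and 4.21%, 7.63% together). A fit that dropped 2D-3 as well as 3D-2 had 22 higher and 5 lower (28.4% and 29.5%, 58% together). These libraries correlated least with the others of their culture, so passing in that fit is no independent support for a gene. The genes COL12A1, COL13A1, COL3A1, COL4A4, COL4A6, COL5A1, COL7A1, COL8A1 and COL9A2 passed with each of the 6 libraries left out in turn. COL8A1 was tested through its 3D values, and the share of all tested genes that passed all 6 fits was not determined. Under other filters, scalings and tools the count of collagen genes past the threshold lay between 18 and 22. The background was 23.2% and 24.9% with pseudocounts of 0.1 and 10, 14.9% with no filter, 24.1% with a minimum mean of 50 and with robust eBayes, 24.2% with TMM, 20.7% with the replicate number as a block, 23.4% with edgeR and 30.3% with DESeq2. With libraries rescaled to equal totals, 17 collagen genes rose and 4 fell (15.3% and 8.03% of all genes, 23.4% together), and of all genes 2391 rose and 1253 fell in place of 1950 and 1816, as the median log2 change of all genes moved from -0.02 to 0.11.

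**Figure D1:**
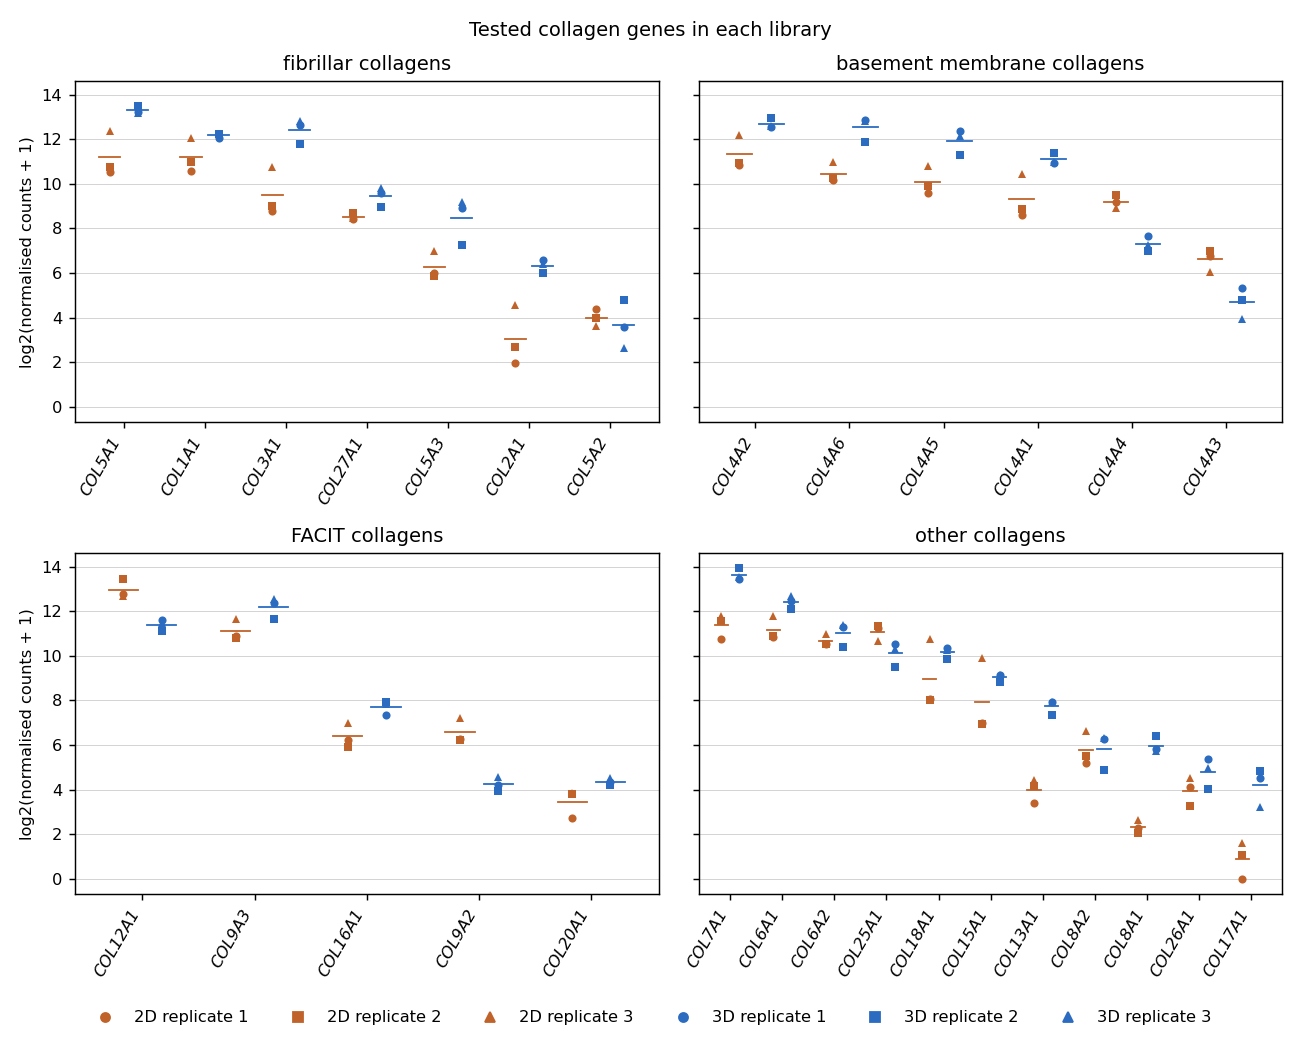
The 29 tested collagen genes in each library, by class, as log2(normalised counts + 1). Points are libraries (circle, square and triangle for replicates 1, 2 and 3), short lines are the means of 2D (orange) and 3D (blue). For COL7A1, COL5A1 and COL3A1 the blue points lie above all orange ones, for COL12A1 and COL4A4 below.

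Fibrillar collagens passed the threshold in the upward direction only. Of 7 tested, 5 rose and none fell, with a median log2 change of 2.08. COL5A1 (ENSG00000130635, chromosome 9, 134641774 to 134844843, GRCh38), whose chain regulates the diameter of collagen fibrils, had 1472, 1719 and 5229.8 normalised counts in 2D and 9493, 11591 and 9186 in 3D. All 3D libraries were higher, and 2D-3 lay between its group and the spheres (log2 change 2.08, SE 0.43, adjusted p = 0.011). COL3A1 (ENSG00000168542, chromosome 2, 188974320 to 189012746), the homotrimeric collagen of elastic tissues such as skin and vessels, had 444, 506 and 1749 in 2D and 6445, 3521 and 7148 in 3D. Library 2D-3 was again the highest of 2D, and 3D-2 was the lowest of the spheres (log2 change 2.89, SE 0.50, adjusted p = 0.0065). Without 2D-3 the changes were 2.66 for COL5A1 and 3.52 for COL3A1.

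COL2A1, the main collagen of cartilage, was low, with 2.86, 5.34 and 22.6 in 2D and 93.7, 64.0 and 82.6 in 3D (log2 change 3.27, SE 0.64, limma adjusted p = 0.01). Its 2D mean of 10.3 reached 10 only through 2D-3. Its call was lost without 3D-3 (adjusted p = 0.052). COL5A3, a further type V chain, had 63.9, 56.6 and 127 in 2D and 479.7, 154 and 590.5 in 3D. The groups did not overlap, although 3D-2 lay near 2D-3 (log2 change 2.17, SE 0.52, adjusted p = 0.02). COL27A1, a fibrillar collagen of cartilage, had 337, 416 and 354 in 2D and 774, 499 and 889.8 in 3D (log2 change 0.93, SE 0.24, adjusted p = 0.028). Both lost their call without 2D-1, 2D-2, 3D-1 or 3D-3, with adjusted p of up to 0.09 for COL5A3 and 0.12 for COL27A1.

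COL1A1 (ENSG00000108821, chromosome 17, 50183289 to 50201632), which encodes the major chain of type I collagen, did not pass. It had 1536, 2023 and 4254 in 2D and 4303, 4758 and 4817 in 3D. The groups did not overlap, but 2D-3 lay just below the lowest 3D library (log2 change 0.97, SE 0.33, adjusted p = 0.066). Without 2D-3 it passed (log2 change 1.39, adjusted p = 0.00032, the lowest of the 6 fits, which reached 0.21). COL5A2, the usual partner of COL5A1 in type V trimers, was near the limit of detection, with 20.0, 14.9 and 11.3 in 2D and 11.1, 27.1 and 5.16 in 3D. Its libraries overlapped and it did not pass (adjusted p = 0.72). Its gene (ENSG00000204262, chromosome 2, 189031896 to 189225312) neighbours COL3A1. Per kilobase of exon, COL3A1 stood at 0.417, 0.361 and 0.593 times the level of COL1A1 in 2D and at 2.16, 1.07 and 2.14 times in 3D. By this measure COL3A1 exceeded COL1A1 in each sphere library, and in 2D it was the lower of the pair. In counts not divided by length, COL3A1 was below COL1A1 in 3D-2 (3521 against 4758). The order in 3D-2 thus depends on the exon lengths used, 6.81 kb for COL3A1 and 9.82 kb for COL1A1. COL11A1 and COL24A1 had at most 4.11 in any library and were not tested.

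**Figure D2:**
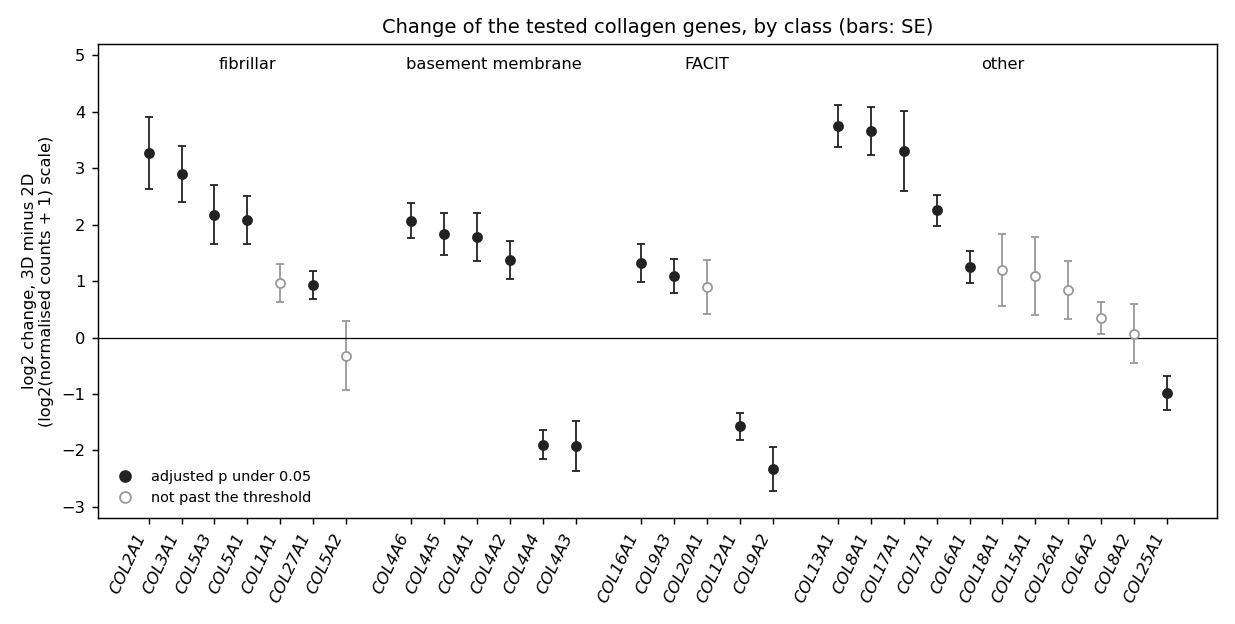
The log2 change (3D minus 2D, log2(normalised counts + 1) scale) of the 29 tested collagen genes by class. Points are estimates with SE from limma, and filled points passed an adjusted p of 0.05. Basement membrane and FACIT collagens have filled points on both sides of 0, while fibrillar collagens have filled points above 0 only.

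All 6 type IV collagen genes passed, 4 higher and 2 lower. They lie in head-to-head pairs that are transcribed away from each other, and each pair moved in a single direction. The pair COL4A1 and COL4A2 encodes the trimer found in nearly all basement membranes. COL4A1 (ENSG00000187498, chromosome 13, 110148963 to 110307233) had 392, 465 and 1411 in 2D and 1984, 2644 and 2012 in 3D (log2 change 1.78, SE 0.43, adjusted p = 0.021). COL4A2 had 1840.3, 1988 and 4651 in 2D and 5944, 7989.6 and 6249 in 3D (log2 change 1.37, SE 0.34, adjusted p = 0.023). Both were higher in every 3D library, and both had 2D-3 near the spheres, with 1411 and 4651. Both calls were lost without any 1 library other than 2D-3 (adjusted p of up to 0.072 and 0.082), and without 2D-3 the changes were 2.36 and 1.80.

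COL4A5 and COL4A6 encode the chains of a trimer of skin and smooth muscle basement membranes. COL4A5 (ENSG00000188153, chromosome X, 108439844 to 108697545) had 767, 966 and 1789 in 2D and 5349.8, 2472 and 4593 in 3D (log2 change 1.84, SE 0.37, adjusted p = 0.011; adjusted p = 0.056 without 3D-3, where the call was lost). COL4A6 (ENSG00000197565, chromosome X, 108155607 to 108439497) had 1152, 1223 and 1990.3 in 2D and 7389, 3818 and 7305 in 3D (log2 change 2.07, SE 0.31, adjusted p = 0.0037). The cultures did not overlap for either gene, and 3D-2 was the lowest sphere library for both.

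COL4A3 and COL4A4, whose chains join that of COL4A5 in the basement membranes of kidney glomerulus, lung and ear, went the other way. COL4A4 (ENSG00000081052, chromosome 2, 227002711 to 227164453) had 579, 729 and 481 in 2D and 203, 126 and 151 in 3D (log2 change -1.90, SE 0.25, adjusted p = 0.0024). COL4A3 had 108, 128 and 65.8 in 2D and 39.0, 27.1 and 14.5 in 3D (log2 change -1.92, SE 0.44, adjusted p = 0.018). Every 3D library was below every 2D library for both, and 2D-3 was the 2D library nearest to the spheres. The call of COL4A3 was lost without 2D-1, 2D-2 or 3D-3 (adjusted p of up to 0.069), and that of COL4A4 held in all 6 such fits (0.00036 to 0.018).

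Per kilobase of exon, the summed level of COL4A5 and COL4A6 was 2.72, 2.47 and 6.64 times that of COL4A3 and COL4A4 in 2D. In 3D it was 51.0, 40.0 and 71.0 times. These ratios did not overlap between the cultures. Within the pairs the ratios moved far less. COL4A2 stood at 3.12 ± 0.548 times COL4A1 in 2D and 2.32 ± 0.0440 in 3D, COL4A4 at 5.55 ± 0.939 and 6.12 ± 2.89 times COL4A3, and COL4A6 at 1.65 ± 0.251 and 1.92 ± 0.141 times COL4A5. The ranges of the first ratio did not overlap between cultures, and those of the other pairs did.

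**Figure D3:**
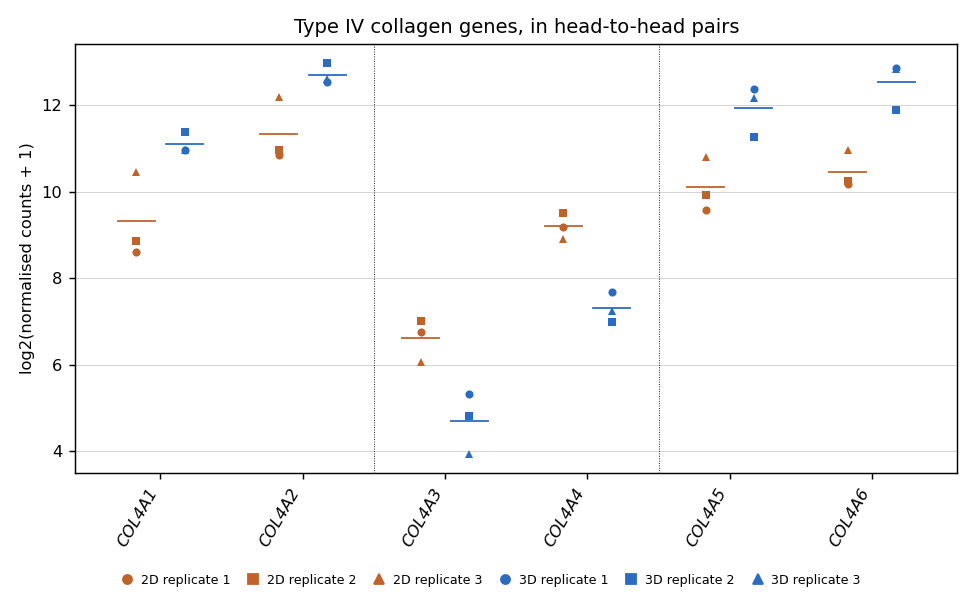
The 6 type IV collagen genes in each library as log2(normalised counts + 1), with dotted lines between the head-to-head pairs. Points are libraries (circle, square and triangle for replicates 1, 2 and 3), short lines are means of 2D (orange) and 3D (blue). The pair in the middle, COL4A3 and COL4A4, is lower in 3D, and the other pairs are higher.

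The stretches before the start sites of these genes are printed, and the members of each pair share part of this sequence. Whether it has a part in their changes was not tested. The stretches come from RefSeq (GRCh38.p14), and 27 of the 38 genes were matched in the promoter table used here. Between the RefSeq starts lie 126 bases for COL4A1 and COL4A2, 418 for COL4A3 and COL4A4, and 379 for COL4A5 and the nearer of the 2 starts of COL4A6. For the first pair the whole stretch between the starts is given, read in the direction of COL4A2, and for the others the 250 bases before each start, read in the direction of the named gene. Capitals mark matches on either strand to the GC-box core GGGCGG, the CCAAT box, the TATA-box string TATAAA, and the AP-1 string TGANTCA (N is any base).
COL4A1 and COL4A2: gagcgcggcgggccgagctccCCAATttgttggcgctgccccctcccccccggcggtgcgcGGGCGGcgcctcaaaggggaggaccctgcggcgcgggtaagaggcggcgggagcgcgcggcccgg
COL4A3: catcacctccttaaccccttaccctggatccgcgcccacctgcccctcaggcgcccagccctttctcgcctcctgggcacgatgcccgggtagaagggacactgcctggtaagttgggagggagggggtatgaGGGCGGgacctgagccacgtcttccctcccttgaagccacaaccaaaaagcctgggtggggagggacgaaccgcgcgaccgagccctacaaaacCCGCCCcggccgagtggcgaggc
COL4A4: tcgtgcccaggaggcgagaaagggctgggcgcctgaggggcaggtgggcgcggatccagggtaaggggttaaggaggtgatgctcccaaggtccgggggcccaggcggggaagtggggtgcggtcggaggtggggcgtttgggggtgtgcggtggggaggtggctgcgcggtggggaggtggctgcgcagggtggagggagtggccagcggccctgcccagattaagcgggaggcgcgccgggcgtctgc
COL4A5: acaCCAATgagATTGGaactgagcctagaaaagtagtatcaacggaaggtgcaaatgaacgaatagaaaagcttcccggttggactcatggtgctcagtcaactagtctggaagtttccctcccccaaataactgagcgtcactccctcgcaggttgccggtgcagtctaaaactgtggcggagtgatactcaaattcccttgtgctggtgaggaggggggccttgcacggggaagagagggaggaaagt
COL4A6: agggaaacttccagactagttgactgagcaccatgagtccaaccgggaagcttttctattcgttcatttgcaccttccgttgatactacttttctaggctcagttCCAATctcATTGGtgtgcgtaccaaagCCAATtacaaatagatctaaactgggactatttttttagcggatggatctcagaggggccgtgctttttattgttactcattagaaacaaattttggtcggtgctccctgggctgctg
These lie at chr13:110307158-110307283 (plus strand), chr2:227164374-227164623 (plus), chr2:227164206-227164455 (minus), chrX:108439588-108439837 (plus) and chrX:108439459-108439708 (minus). Counted back from the base before the start as -1, the stretch of COL4A1 and COL4A2 held a CCAAT match at -105 and a GGGCGG match at -65. That of COL4A3 held GGGCGG at -117 and -23, and that of COL4A4 held none of the motifs. COL4A6 had CCAAT matches at -145, -137 and -118, of which the first and second overlap the window of COL4A5, where they stand at -239 and -247. The GC content was 80.2% for the COL4A1 and COL4A2 stretch, 66.4% for COL4A3, 72.8% for COL4A4, 51.2% for COL4A5 and 44% for COL4A6, against a median of 58% over 35116 windows of 250 bases. Of those windows 42.6% held GGGCGG, 32.0% CCAAT, 10.7% TATAAA and 6.57% TGANTCA. Of the 27 matched collagen genes 18, 9, 7 and 1 held the motif in any of their windows. A gene with several starts has several windows, so the counts by gene and the percentages of windows are not directly comparable. A match is a description of the letters and shows no binding.

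FACIT collagens moved in both directions. Of 9 genes 5 were tested, and 2 rose and 2 fell. COL12A1 (ENSG00000111799, chromosome 6, 75084326 to 75206051), which coats type I fibrils in tissues under tension, had 6938, 11085 and 6658 in 2D and 3085, 2203 and 2869.7 in 3D. All 3D libraries were lower, and 2D-2 was the highest of all (log2 change -1.57, SE 0.24, adjusted p = 0.004). It made up 27.0%, 33.9% and 14.5% of all collagen counts in the 2D libraries and 4.16%, 3.29% and 3.74% in the spheres. COL9A2, a chain of the type IX collagen of cartilage, had 77.2, 72.6 and 149 in 2D and 17.6, 14.5 and 22.7 in 3D (log2 change -2.33, SE 0.39, adjusted p = 0.0058). For COL9A2 the highest 2D library was replicate 3, so this gene did not have replicate 3 nearest to the spheres.

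COL9A3, which encodes a partner chain of COL9A2, rose, with 1899, 1759 and 3195 in 2D and 5305, 3233 and 5966 in 3D. The highest 2D library, replicate 3, lay just below the lowest 3D library, replicate 2 (log2 change 1.09, SE 0.30, adjusted p = 0.032). COL16A1, a FACIT of fibrils and basement membrane zones, had 73.4, 59.8 and 127 in 2D and 161, 244 and 226 in 3D (log2 change 1.32, SE 0.34, adjusted p = 0.025). The call of COL9A3 was lost without 2D-1, 2D-2, 3D-1 or 3D-3, and that of COL16A1 without any 1 library other than 2D-3 (adjusted p of up to 0.13 and 0.1). Per kilobase, COL9A3 was 20.4 ± 1.51 times COL9A2 in 2D and 228 ± 34.2 times in 3D, with no overlap. The third type IX chain, COL9A1, had 3 reads in 2D, all in replicate 3, and 0 in 3D.

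COL20A1 had 5.72, 12.8 and 13.4 in 2D and 19.5, 17.4 and 21.7 in 3D and did not pass (adjusted p = 0.19), although the groups did not overlap. COL19A1, a FACIT of basement membrane zones, was too low to test, with 3.81, 5.34 and 8.22 in 2D and no reads in 3D. Against 3 reads summed over the 3D libraries it was at least 5.90-fold lower, from 17 reads in 2D, a bound that covers counting error only. COL14A1 had at most 7.42 in any library and COL22A1 had 2 reads, both in 2D-1.

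The bases before the starts of the genes COL7A1 and COL12A1 are shown with the same marks. These genes lie on different chromosomes and moved in opposite directions. They were picked with their changes known, so they are no control for the type IV pairs.
COL7A1: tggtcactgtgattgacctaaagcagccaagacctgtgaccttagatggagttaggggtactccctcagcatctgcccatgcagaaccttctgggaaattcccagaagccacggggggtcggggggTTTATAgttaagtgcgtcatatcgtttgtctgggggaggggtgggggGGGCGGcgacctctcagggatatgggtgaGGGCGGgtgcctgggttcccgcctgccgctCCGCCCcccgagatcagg
COL12A1: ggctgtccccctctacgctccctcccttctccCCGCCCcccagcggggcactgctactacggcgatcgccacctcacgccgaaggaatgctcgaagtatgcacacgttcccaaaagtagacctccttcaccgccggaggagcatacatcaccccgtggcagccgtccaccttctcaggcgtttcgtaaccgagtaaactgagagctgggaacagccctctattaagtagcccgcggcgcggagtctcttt
They lie at chr3:48595330-48595579 and chr6:75206054-75206303, both on the minus strand (GRCh38.p14, RefSeq). The COL7A1 window held GGGCGG matches at -77, -48 and -18 and a TATAAA match at -124, and the COL12A1 window held a GGGCGG match at -218.

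Among the other collagens, 11 of 14 were tested, and 5 rose and 1 fell (54.5%, against 24.1% of all tested genes). COL8A1 and COL17A1 had a mean under 10 in 2D and were tested through their 3D values. Among the other 9 tested, 3 rose and 1 fell (44.4%). COL7A1 (ENSG00000114270, chromosome 3, 48564073 to 48595267), the collagen of the anchoring fibrils that fix the basement membrane to the dermis, had 1742, 3018 and 3533 in 2D and 11133, 15443 and 11720.3 in 3D. All 3D libraries were far above the highest 2D library, replicate 3 (log2 change 2.25, SE 0.28, adjusted p = 0.0016). Its share of all collagen counts went from 7.91% ± 1.24 (SD, n = 3) to 17.8% ± 4.56 (SD, n = 3). With 1153 normalised counts per kilobase of exon it had the highest mean per length in 3D, beside COL6A1 at 1040.2, COL9A3 at 999, COL5A1 at 902 and COL3A1 at 838. That rank came from 3D-2 alone, where COL7A1 had 1395 per kilobase. In 3D-1 COL9A3 (1096) and COL6A1 (1065) lay above COL7A1 (1006), and in 3D-3 COL6A1 (1236) and COL9A3 (1232) lay above it (1059). In 2D the means were 659 per kilobase for COL12A1, 472 for COL9A3, 453 for COL6A1 and 307 for COL6A2. COL12A1 led in 2D-1 and 2D-2, but in 2D-3 COL6A1 (664) and COL9A3 (660.0) lay above it (533). The COL7A1 level was 0.396 ± 0.176 times that of COL12A1 in 2D and 5.52 ± 2.08 times in 3D.

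The transmembrane collagens are shed or cell-bound proteins of epithelia, synapses and neurons. COL13A1 (ENSG00000197467, chromosome 10, 69801867 to 69964275), which sits at cell adhesion sites, had 9.53, 17.1 and 20.6 in 2D and 246, 164 and 241 in 3D (log2 change 3.74, SE 0.37, adjusted p = 0.0007). COL17A1, a hemidesmosome component of skin, went from 3 reads summed over 2D to 60 over 3D, which is a ratio of 19.2 with an exact 95% binomial interval of 6.27 to 95.8. It had 0, 1.07 and 2.06 in 2D and 22.3, 27.1 and 8.26 in 3D, and its call was lost without 3D-1 (adjusted p = 0.067; 0.014 with all libraries, limma). COL25A1, a neuronal membrane collagen that binds amyloid, fell, with 2390.3, 2609 and 1638 in 2D and 1476, 716 and 1255 in 3D (log2 change -0.98, SE 0.29, adjusted p = 0.043). This was the weakest of the calls. It was lost without any 1 library other than 2D-3 (adjusted p of up to 0.13), and edgeR's quasi-likelihood test on recovered reads gave an adjusted p of 0.052.

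COL8A1, a short-chain collagen of vessel walls and the cornea, had 3.81, 3.20 and 5.14 in 2D and 54.7, 82.4 and 52.6 in 3D (log2 change 3.66, SE 0.42, limma adjusted p = 0.0012). With a 2D mean of 4.05, COL8A1 was tested through its 3D values. Its partner COL8A2 had 35.3, 43.8 and 96.6 in 2D and 77.0, 28.1 and 79.5 in 3D, overlapping groups that did not pass (limma adjusted p = 0.94). Without 2D-3 and 3D-2 it passed (adjusted p = 0.01), as did 58% of all tested genes. Type VI collagen forms beaded filaments around cells. COL6A1 had 1855, 1863 and 3547 in 2D and 5692, 4378 and 6603 in 3D (log2 change 1.25, SE 0.28, adjusted p = 0.017). Its neighbour on chromosome 21, COL6A2, had 1491, 1474 and 1999 and 2507, 1339 and 2697 and did not pass (adjusted p = 0.38), with 3D-2 below every 2D library. With 2D-3 and 3D-2 left out it passed (limma adjusted p = 0.00025), as did 58% of all tested genes in that fit. The call of COL6A1 was lost without 2D-1, 2D-2, 3D-1 or 3D-3 (adjusted p of up to 0.079). Per kilobase, COL6A1 was 1.25, 1.27 and 1.79 times COL6A2 in 2D and 2.29, 3.30 and 2.47 times in 3D, without overlap.

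The multiplexins COL15A1 and COL18A1, basement membrane collagens whose C-terminal fragments restin and endostatin inhibit vessel growth, turned on 2D-3. COL18A1 had 269, 260.5 and 1711 in 2D and 1289.7, 929 and 1219 in 3D. COL15A1 had 127, 121 and 947 in 2D and 559, 447 and 565 in 3D. In both genes 2D-3 was above every sphere library and the other 2D libraries were below, and neither passed (adjusted p = 0.19 and 0.27). Without 2D-3 they passed, with log2 changes of 2.10 and 2.06 (adjusted p = 8.8e-05 and 0.00011; up to 0.48 and 0.61 without another library). Of the exon bases of COL18A1, 16.4% overlap exons of SLC19A1 on the other strand, and the library kit does not mark strand. COL26A1 had 16.2, 8.54 and 21.6 and 40.8, 15.5 and 29.9 and did not pass (limma adjusted p = 0.26). Without 2D-3 and 3D-2 it passed (adjusted p = 0.014), as did 58% of all tested genes. COL6A5 went from 1 read over 2D to 26 over 3D, most in 3D-2 (20.4 normalised counts), which is a ratio of 25.0 with an exact interval of 4.11 to 1025. COL6A6 and COL10A1 had at most 8.54 in any library and were not tested.

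The classes held different shares of the collagen counts in the cultures. Fibrillar genes held 15.1%, 14.5% and 25.6% of the collagen counts in 2D and 29.1%, 30.8% and 29.6% in 3D. Basement membrane genes held 18.9%, 16.8% and 22.7% in 2D and 28.2%, 25.5% and 26.5% in 3D. FACIT genes held 35.1%, 39.8% and 22.2% in 2D and 11.6%, 8.53% and 11.9% in 3D. Within this class, COL12A1 alone held 27.0%, 33.9% and 14.5% in 2D and 4.16%, 3.29% and 3.74% in 3D. COL9A3 held 6.59% ± 1.06 in 2D and 6.59% ± 1.56 in 3D, so the fall of the FACIT share was that of COL12A1 for the most part. For all 3 classes the cultures did not overlap and 2D-3 was the 2D library nearest to 3D. The other collagens held 28.9% to 30.9% in 2D and 31.1% to 35.2% in 3D. Summed FACIT counts were 9004, 12999 and 10156 in 2D and 8596, 5715 and 9113 in 3D, overlapping groups, while summed fibrillar counts were 3880, 4741 and 11754 in 2D and 21602, 20618 and 22723 in 3D. These shares depend on one another and on gene length, and no test was made on them.

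**Figure D4:**
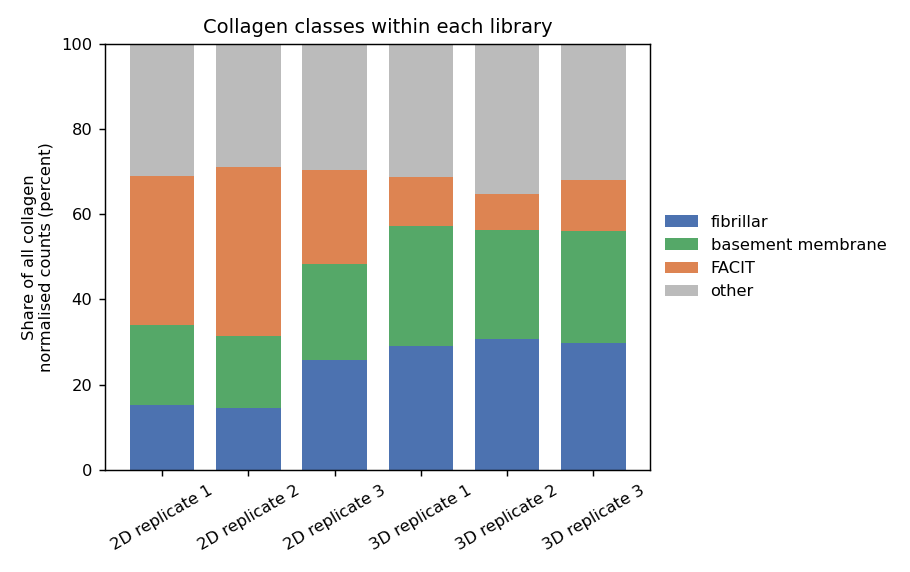
Share of each class in the normalised counts of all 38 collagen genes, as a percentage per library (bars add to 100%). The FACIT share is 22.2% to 39.8% in the 2D libraries and 8.53% to 11.9% in the 3D libraries. The FACIT gene COL12A1 alone holds 14.5% to 33.9% in 2D and 3.29% to 4.16% in 3D.

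The genes that make, bind and cleave collagen were listed apart from the collagens themselves, 61 in all, of which 51 were tested. The background for the counts below is 12.5% higher, 11.6% lower and 24.1% together over all genes, and with a library left out it ran from 3.42% to 22.6% higher and from 4.21% to 23% lower. Hydroxylases of procollagen and their partners had 5 of 13 higher and none lower (38.5%), with a median log2 change of 0.60. The prolyl hydroxylase subunits P4HA3 and P4HA2 rose from 56.7 ± 2.89 to 174 ± 31.3 (log2 change 1.59, SE 0.26, adjusted p = 0.0052) and from 288 ± 172 to 831 ± 99.7 (adjusted p = 0.014). P3H1 and the lysyl hydroxylase PLOD1 rose by less, with log2 changes of 0.76 and 0.70 (adjusted p = 0.029 and 0.031). P4HB, the abundant partner subunit, had 12279 ± 984 and 10568 ± 456 and CRTAP 7141 ± 973 and 8340.1 ± 494, and neither passed. With a library left out, 1 to 8 of the genes rose: P4HA2 lost its call without 2D-2, 3D-1 or 3D-3. PLOD1 lost it without 2D-1, 2D-2, 3D-1 or 3D-3, and P3H1 without any of these or 3D-2.

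Of 11 tested genes of folding, glycosylation and export, 2 rose and 1 fell (27.3%), with a median of 0.21, a share near the 24.1% of all genes. CREB3L1, a transcription factor that drives procollagen secretion, rose from 77.9 ± 12.2 to 210.3 ± 27.3 (log2 change 1.42, SE 0.25, adjusted p = 0.0069), and SPARC, a collagen-binding matricellular protein, from 1625 ± 1169.9 to 4529.7 ± 407 (adjusted p = 0.02). MIA2, which helps load procollagen into carriers, fell, with 1969, 1744 and 392 in 2D and 295, 365 and 231 in 3D, where 2D-3 lay next to the spheres (adjusted p = 0.037). The calls of SPARC and MIA2 were lost without any 1 library other than 2D-3 (up to 0.076 and 0.13). The collagen chaperone SERPINH1 (6941 ± 973 and 8647 ± 1025), FKBP10 (5736 ± 489 and 8199 ± 1294) and COLGALT1 (5708 ± 1233 and 6545 ± 609.9) did not pass.

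Of 11 tested genes of procollagen processing and crosslinking, 5 rose and 1 fell (54.5%), with a median of 0.88. The procollagen C-proteinases TLL1 and BMP1 rose from 16.4 ± 11.8 to 95.1 ± 12.6 (adjusted p = 0.0078) and from 1572 ± 178 to 2905 ± 352 (adjusted p = 0.0095; 0.055 without 3D-3). Their enhancers PCOLCE and PCOLCE2 rose from 4055 ± 2769 to 11698 ± 3989 and from 709 ± 171 to 1310.1 ± 196 (adjusted p = 0.03 and 0.021). LOXL4, a lysyl oxidase, fell from 553 ± 204 to 142 ± 14.1 (log2 change -1.88, SE 0.31, adjusted p = 0.0053). Another, LOXL2, rose from 1879 ± 411 to 3265 ± 846 (adjusted p = 0.0497, limma), with overlapping groups. That call was lost without 2D-1, 2D-2, 3D-1 or 3D-3. LOX, LOXL1 and LOXL3 did not pass. These further lysyl oxidases are named after their values were seen. With a library left out, 1 to 7 of the genes rose: PCOLCE lost its call without 2D-1, 2D-2, 3D-1 or 3D-3, and PCOLCE2 without any of these or 3D-2.

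Of 7 tested collagen receptors, 3 rose and 1 fell (57.1%), with a median of -0.21. The 3 that rose were integrin alpha subunits that bind collagen, while a further such subunit, ITGA1, had 772, 985 and 466 in 2D and 366, 584 and 349.9 in 3D and did not pass (log2 change -0.75, adjusted p = 0.11). ITGA2 had 286, 335 and 224 in 2D and 1092, 1322 and 849 in 3D (log2 change 1.94, SE 0.23, adjusted p = 0.0015), and ITGA10 3.81, 20.3 and 12.3 and 773, 594 and 962 (adjusted p = 0.00044). ITGA11 had 3.81, 4.27 and 13.4 in 2D and 41.8, 168 and 42.3 in 3D, where 3D-2 was the highest (adjusted p = 0.012). It had a mean under 10 in 2D and was tested through its 3D values, and without it 2 of 6 rose and 1 fell, with a median of -0.47. The receptor kinase DDR2 had 6369, 7470.4 and 1833 in 2D and 2233, 1783 and 1928 in 3D and did not pass (adjusted p = 0.096). ITGA1 and DDR2 are named here after their values were seen. ITGB1, the beta chain that pairs with the integrin alpha subunits named above, had 5648 ± 168 and 4948 ± 1083 and did not pass. MRC2, an endocytic receptor that takes up collagen, fell from 9516 ± 1321 to 5805 ± 1203 (adjusted p = 0.038), a call lost without 2D-1, 2D-2, 3D-1 or 3D-3 (up to 0.16).

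Of 9 tested genes of collagen cleavage and its inhibitors, 4 rose and 1 fell (55.6%), with a median of 1.31. MMP1, MMP13 and CTSK had a mean under 10 in 2D, and MMP14 had one in 3D, so that each was tested through the other culture. Among the other 5 genes 2 rose and 1 fell, with a median of 0.08. The interstitial collagenase MMP1 had 0.953, 0 and 2.06 in 2D and 128, 335 and 122 in 3D (adjusted p = 0.00057). The gelatinase MMP2 had 152, 162 and 242 in 2D and 2514, 7549.5 and 2842 in 3D (log2 change 4.37, SE 0.40, adjusted p = 0.00057). In both, 3D-2 was well above every other library. The cathepsin CTSK and the inhibitor TIMP1 rose from 6.45 ± 2.44 to 24.2 ± 5.76 and from 3686 ± 1628 to 8641 ± 1335 (adjusted p = 0.029 and 0.016), and TIMP3 fell from 3315 ± 816 to 1770.5 ± 304 (adjusted p = 0.027). These 3 calls were lost without 2D-1, 2D-2, 3D-1 or 3D-3. TIMP2 had 10898 ± 2181 and 11507 ± 2330.5 and did not pass.

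**Figure D5:**
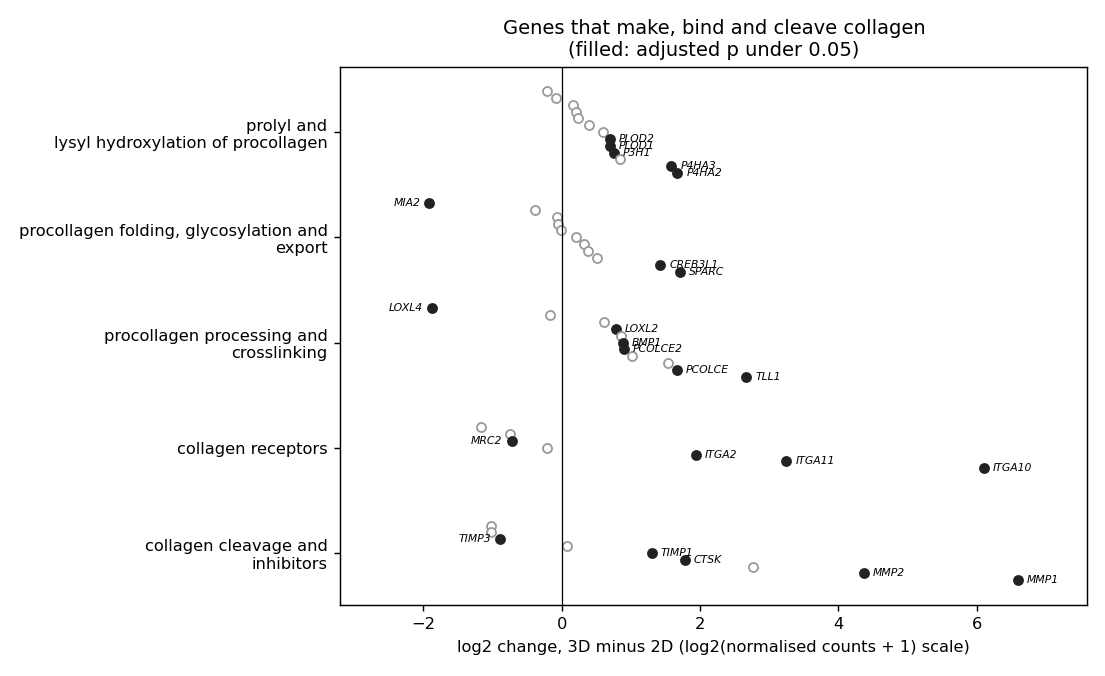
The log2 change (3D minus 2D, log2(normalised counts + 1) scale) of tested genes that make, bind and cleave collagen, 1 row of points per list. Filled, named points passed an adjusted p of 0.05. The rows of receptors and of cleavage genes reach furthest to the right, with ITGA10 and MMP1.

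The melanocyte markers summed to 1596 to 1873 in 2D and 910 to 1666 in 3D, where MITF and DCT fell and PMEL did not pass. Markers of other cell types, including those rich in collagen, were compared in the same libraries. Over all tested genes 12.5% were higher and 11.6% lower, 24.1% together. Of 10 fibroblast markers 8 had a row and 4 were tested, 1 of them higher (DPT), which is 25% and near the 24.1% of all genes. The summed level of the fibroblast markers was 7436 to 10674 in 2D and 6987 to 10721 in 3D, most of it FBLN1. PDGFRB was highest in 3D-2 and, within 2D, in replicate 3. DCN, FAP, THY1 and TCF21 had at most 8.22 in any library. DPT, SOX9, PECAM1 and COMP had a mean under 10 in 2D, and DCT and CDH1 had one in 3D, so that each was tested through the other culture. Without them, 0 of 3 fibroblast and 0 of 2 endothelial markers passed. Then 1 of 4 epithelial and 1 of 2 melanocyte markers fell, and of 2 chondrocyte markers 1 rose and 1 fell. DPT was at 0 in 2D and had 27.8, 11.6 and 20.6 in 3D. Of 7 chondrocyte markers 5 had a row and 4 were tested, 2 higher (SOX9 and MATN1) and 1 lower (MATN3). Their summed level was 206 to 233 in 2D and 142 to 204 in 3D. In 2D most of it was MATN3, which fell from 193 ± 26.8 to 57.9 ± 20.9 (adjusted p = 0.0071, limma). The cartilage regulator SOX9, for which COL2A1 is a known target, had 2.86, 0 and 6.17 in 2D and 53.8, 82.4 and 45.4 in 3D (adjusted p = 0.0058), and the cartilage proteoglycan ACAN at most 5.14. Endothelial markers summed to 52.3 to 321 in 2D and 141 to 188 in 3D, with 1 of 3 tested higher (PECAM1), and TEK and KDR at or near 0. CDH5 had 25.7, 13.9 and 268 in 2D and 19.5, 21.3 and 21.7 in 3D, and neither it nor VWF passed. Epithelial markers summed to 25644 to 65884 in 2D, where replicate 3 was the highest, and 33899 to 44945 in 3D, with 2 of 5 tested lower (EPCAM and CDH1). Most of the sum was KRT8 (means of 24771 in 2D and 24927 in 3D), KRT18 (11234 and 10689) and KRT19 (4577 and 3193), and none of these passed. KRT5 had a mean of 0.318 in 2D and 6.53 in 3D and was not tested. The part of any such cells in the collagen values was not tested.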

How the data were processed

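The authors deposited a normalised count per gene, a signal in which reads are divided by 1 factor per library, as their values show. The submitters' processing notes name HISAT2, featureCounts 1.5.0, DESeq2 and the build GRCh38. Their other versions and the gene annotation were not given in these sources. Per the labels' protocols, poly(A) libraries were made with an Illumina TruSeq RNA kit, which does not mark strand, and read on a NovaSeq. All values were whole multiples of a step per library (100% within 0.01 of a read), so whole reads could be recovered; edgeR called 3657 genes on them. The table has 6 further columns that belong to no sample and were not used.

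Symbols matched 26506 of 26748 genes, and 26702 were in GENCODE 29 (GRCh38), which gave biotypes, coordinates and exon lengths (the union of all exons). No 75-base window of a collagen transcript occurred in transcripts of another gene. Genes with a mean of at least 10 over the 6 libraries (15598) were tested on log2(value + 1) in limma 3.58.1 under R 4.3.3. The model had culture alone, the prior variance followed a mean trend, and p-values were adjusted by Benjamini-Hochberg over all tested genes. Fold changes on this scale understate the change of low genes. Alternatives were pseudocounts, filters, scalings, the replicate block, robust eBayes, edgeR 4.0.16, DESeq2 1.42.0 and leaving out libraries. On simulated counts for these genes with 200 changed, the fit recovered 19% of genes changed by 1 and 70% of those changed by 2 (log2), and 9 unchanged genes were called.

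The collagen genes and lists were chosen with earlier results of these data known. Values in each library are given for the collagen genes past the threshold, the highest of each class and their trimer partners, and of each other list for up to 4 genes past the threshold in each direction and genes with a mean above 5000. Markers were chosen by cell type (1 list is not reported here), and members below the filter are given as values. PCR copies are not independent molecules, so intervals and bounds describe counting error alone.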

Additional observations from a re-analysis of the deposited data

How the results depend on the processing

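The collagen count of 21 genes past the threshold (16 higher, 5 lower) was 18 to 22 with a pseudocount of 0.1 or 10, without a filter, with a minimum mean of 50, TMM, equal totals, the replicate block, robust eBayes, edgeR and DESeq2, and no called gene changed direction there. COL25A1 lost its call with equal totals and with edgeR, COL1A1 gained one with equal totals, COL19A1 passed without the filter, and COL17A1, COL2A1 and COL8A1 fell below the higher minimum and were not tested. The count fell to 10 to 12 without 2D-1, 2D-2, 3D-1 or 3D-3 and was 24 at most (7 to 19 higher, 3 to 5 lower), for all genes it ran from 1190 to 7111 in place of 3766, and for the genes that make, bind and cleave collagen from 9 to 33 in place of 23. Leaving out both 2D-3 and 3D-2, 27 collagen genes, 9041 of all genes and 36 of the latter passed (COL1A1, COL15A1, COL18A1, COL6A2, COL8A2 and COL26A1 were added), with 2 libraries per culture. COL5A2, which did not pass, had a log2 change of 0.20 without 3D-3 and -1.08 without 2D-3 and 3D-2, and COL8A2 of -0.22, -0.07, -0.16 and -0.18 without 2D-1, 2D-2, 3D-1 and 3D-3, and 0.98 without 2D-3 and 3D-2. The cause was not tested. The labels give both cultures the same replicate numbers, but same-numbered libraries did not deviate together (r = -0.08, -0.14 and 0.04 across genes). Deviations were taken within groups of 3 libraries, so this check cannot exclude a pairing. The labels do not name one. With the replicate block 22 collagen genes passed, COL1A1 being added, and 3222 of all genes. Collagen genes with a mean under 10 were too shallow for a test.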

Other observations

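Transcripts named after collagen genes but not coding for them were low. COL5A1-AS1, antisense to COL5A1, had 0.953, 1.07 and 1.03 normalised counts in 2D and 17.6, 6.79 and 8.26 in 3D. COL4A2-AS1 had 0 in every 2D library and 3.71, 0.969 and 2.06 in 3D. The kit does not mark strand. In GENCODE 29 no exon base of COL5A1 and 0.492% of those of COL4A2 are overlapped by exons of another gene. Reads in such shared bases cannot be told apart. Whether unspliced RNA of the opposite gene added to the antisense counts was not tested. COL25A1-DT, a divergent transcript of COL25A1, had 8.58, 5.34 and 0 in 2D and 10.2, 4.85 and 11.4 in 3D. The type VI pseudogene COL6A4P1 had 9.53, 9.61 and 10.3 in 2D and 14.8, 5.82 and 7.23 in 3D. COL18A1-AS1 and COL6A4P2 had at most 2.86 in any library. None reached a mean of 10 over the 6 libraries, so none was tested.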
